A study of Caenorhabditis elegans with 2 samples.

Results

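The regions described here are the 685 autosomal intronic regions of UNC-62 signal in whole L4 larvae of Caenorhabditis elegans. They were taken from the list of 4849 regions that the authors called on both replicates pooled, of which 3790 lay on the autosomes. Per the texts deposited with it, that list includes background regions, which cannot be told apart here from weak binding. A region was kept where its summit, the base of highest signal, lay inside a protein-coding gene, in no exon of a protein-coding gene, and outside the window from 1000 bp upstream to 500 bp downstream of any protein-coding transcript start. By the same reading, 828 autosomal regions were distal intergenic, 1743 lay in a promoter window and 534 in an exon. The rule used position and annotation only, so signal and reproducibility were free to vary among the regions it chose. It did not use sequence directly, but it kept summits to introns, which limits the sequence near them.

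The data are chromatin immunoprecipitation and sequencing (ChIP-seq), in which DNA attached to a chosen protein is recovered and sequenced. Both samples belong to a single group of 2 biological replicates: mixed-sex L4 larvae of strain OP600, carrying unc119(ed3) and the transgene wgIs600, which holds unc-62 joined to a TY1, EGFP and FLAG tag together with unc119. The antibody's target is given as unc-62, and the labels leave unstated whether it saw the protein or the tag. There was no other stage, genotype or treatment, so every comparison is between kinds of region in the same animals. Whole animals mix all tissues, and a region bound strongly in few cells cannot be told apart from one bound weakly in many.

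UNC-62 belongs to the Meis and Homothorax family of TALE homeodomain factors, which bind DNA with PBC-class partners and Hox proteins. The family recognises TGACAG, and joint sites with a PBC partner place TGAT directly before TGACA. In the worm UNC-62 is known for roles in embryonic patterning, the migration of neuroblasts and vulval development, and, in the adult intestine, for control of yolk protein genes and an effect on lifespan. Introns of animal genes often hold enhancers, and long introns of worm regulatory genes also hold internal promoters of shorter transcripts.

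The windows below were chosen for the word they hold, so its presence in each is no result. They are the intronic regions on chromosomes II to V in the authors' thresholded list that hold TGACAG in either direction. They stand in order of signal, and then comes egl-44, which holds the joint word TGATTGACA in its place. Of 24 intronic regions with a thresholded summit, 9 held TGACAG. Others without it, such as pno-1 and epg-9, are not shown. Each window runs 100 bp to either side of the summit (build ce11, the WBcel235 assembly; RefSeq genome sequence; plus strand, 5′ to 3′). Capitals mark the word, and CTGTCA is TGACAG on the minus strand.
fbxl-5, chrV:7744175-7744375: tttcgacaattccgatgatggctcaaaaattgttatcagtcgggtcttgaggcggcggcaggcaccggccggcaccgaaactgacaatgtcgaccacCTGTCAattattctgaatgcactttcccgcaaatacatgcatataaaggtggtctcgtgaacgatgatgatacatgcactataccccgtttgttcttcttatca
F17C11.22, chrV:10968077-10968277: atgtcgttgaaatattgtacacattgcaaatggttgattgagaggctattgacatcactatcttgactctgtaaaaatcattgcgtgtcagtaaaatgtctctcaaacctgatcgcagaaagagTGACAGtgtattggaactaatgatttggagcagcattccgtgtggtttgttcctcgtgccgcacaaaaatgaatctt
Y111B2A.12, chrIII:12612549-12612749: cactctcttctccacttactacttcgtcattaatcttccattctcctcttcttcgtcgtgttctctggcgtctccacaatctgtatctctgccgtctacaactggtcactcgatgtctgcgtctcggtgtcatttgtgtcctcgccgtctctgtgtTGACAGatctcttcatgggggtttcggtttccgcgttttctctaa
pkg-2, chrIV:8527613-8527813: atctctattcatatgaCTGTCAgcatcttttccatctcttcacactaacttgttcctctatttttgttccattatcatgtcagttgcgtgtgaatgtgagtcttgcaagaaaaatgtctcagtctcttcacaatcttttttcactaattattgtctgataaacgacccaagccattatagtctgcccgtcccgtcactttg
vhp-1, chrII:5330242-5330442: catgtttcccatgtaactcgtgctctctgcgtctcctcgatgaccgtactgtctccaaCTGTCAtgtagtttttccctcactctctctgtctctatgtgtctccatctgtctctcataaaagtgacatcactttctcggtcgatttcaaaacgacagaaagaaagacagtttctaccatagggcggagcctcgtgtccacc
nhr-46, chrIV:5756080-5756280: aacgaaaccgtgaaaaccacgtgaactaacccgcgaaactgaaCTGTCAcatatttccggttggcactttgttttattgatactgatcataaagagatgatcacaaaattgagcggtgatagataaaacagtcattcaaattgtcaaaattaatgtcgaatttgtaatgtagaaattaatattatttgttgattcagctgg
Y67D8A.2, chrIV:3227863-3228063: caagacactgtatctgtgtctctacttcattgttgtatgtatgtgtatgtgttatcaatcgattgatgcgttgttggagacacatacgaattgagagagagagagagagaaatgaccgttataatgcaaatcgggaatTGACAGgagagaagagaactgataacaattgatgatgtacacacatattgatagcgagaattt
egl-44, chrII:5932017-5932217: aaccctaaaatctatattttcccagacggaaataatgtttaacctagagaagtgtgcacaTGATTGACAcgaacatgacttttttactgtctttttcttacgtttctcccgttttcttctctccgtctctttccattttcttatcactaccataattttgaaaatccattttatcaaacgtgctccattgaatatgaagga
The word lay at the summit itself in fbxl-5, 27 bp from it in F17C11.22 and 81 bp from it in pkg-2, so its place within the window varied.

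The highest intronic region lay in fbxl-5, which encodes an F-box and leucine-rich repeat protein; F-box proteins select substrates for ubiquitin ligases. The region (chromosome V, 7744067 to 7744482) had a pooled signal of 80.9, a signal of 27.0 in replicate 1 and of 53.4 in replicate 2. It was the 4th highest of the 18114 regions of replicate 1 and the 15th highest of the 20477 regions of replicate 2. Its summit lay in the first intron, of 5849 bp, 1366 bp downstream of the nearest fbxl-5 start and inside T05B11.10, a non-coding RNA gene on the opposite strand. Signal is the authors' value, without a stated scale, and the scales of the 3 lists differ, so regions are compared by rank within a list. The same intron held 2 further intronic regions, with pooled signals of 11.6 and 10.2, which overlapped each other and took their replicate values from a single region in each replicate.

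Several hosts of regions that reached the thresholded list were regulators of transcription. That list is the authors' short list of peaks, and its hosts were sorted here by known role after their values were seen. The share of genes with such roles among all eligible genes was not counted, so the sorting shows no excess of any role. egl-44, a TEAD-class transcription factor gene with a part in touch neuron fate, held the region of second highest signal in its first intron (chromosome II, 5931909 to 5932324). Its signal was 44.4 in the pool, 14.0 in replicate 1 and 31.5 in replicate 2, with ranks of 48 and 26 in the replicate lists. The summit lay 1369 bp upstream of the start of a further egl-44 transcript, within an intron of 7569 bp. nhr-46, a nuclear hormone receptor gene, had a region in its first intron (chromosome IV, 5755972 to 5756387) with signals of 27.3 in the pool, 13.9 in replicate 1 and 12.2 in replicate 2.

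daf-16, the worm FOXO factor that acts in insulin signalling and lifespan, held a thresholded region in intron 4, of 12401 bp (chromosome I, 10752000 to 10752415), 1248 bp downstream of a daf-16 start. Its signal was 26.1 in the pool, 8.37 in replicate 1 and 15.8 in replicate 2, and its window held TGACAG 2 times, the nearer 4 bp from the summit. irx-1, an Iroquois-class homeodomain gene, held a region in intron 4 (chromosome I, 9537898 to 9538313) with signals of 22.5 in the pool, 11.8 in replicate 1 and 11.5 in replicate 2. There TGACAG lay at the summit and overlapped the joint word TGATTGACA. The summit lay 1366 bp upstream of the start of C41G7.7, which was nearer than any irx-1 start. Part of the region lay outside the intron. The daf-16 and irx-1 regions therefore each carried a word of this class within 4 bp of the point of highest signal.

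The forkhead gene fkh-7 held a region in a first intron of 16465 bp, with signals of 25.4 in the pool, 7.42 in replicate 1 and 16.3 in replicate 2. let-526, which encodes an ARID-domain subunit of a SWI/SNF chromatin remodeller, held a region 801 bp downstream of its start with signals of 22.3 in the pool, 5.74 in replicate 1 and 18.2 in replicate 2. Neither window held TGACAG. let-526 had a second region at q of 0.05 or less in intron 3, with a pooled signal of 19.7, which was not in the thresholded list.

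Some other hosts of thresholded regions were signalling enzymes, sorted in the same way and likewise without a share over all eligible genes. pkg-2, a cGMP-dependent protein kinase gene, had 2 thresholded regions in intron 4, with pooled signals of 31.8 (chromosome IV, 8527505 to 8527920) and 22.2 (8530691 to 8531106). In replicate 1 they had signals of 9.19 and 12.8, and in replicate 2 of 28.9 and 8.78, so the order of the 2 regions was not the same in the replicates. vhp-1, a phosphatase that acts on MAP kinases of stress pathways, held a thresholded region in its first intron (chromosome II, 5330134 to 5330549) with signals of 30.8 in the pool, 7.73 in replicate 1 and 21.5 in replicate 2. Its summit lay inside anr-54, an antisense RNA gene, 1144 bp upstream of a further vhp-1 start. ppfr-1, which encodes a regulatory subunit of protein phosphatase 4, held regions in 2 neighbouring introns, with pooled signals of 22.5 and 21.1, signals of 5.59 and 9.25 in replicate 1, and of 14.2 and 9.26 in replicate 2.

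The other thresholded intronic regions lay in genes of varied roles, and several of these genes are named only. F17C11.22 had a pooled signal of 44.2 and ranks of 9 in replicate 1 and 58 in replicate 2. Its intron was only 40 bp long, so nearly all of the 416-bp region lay over other sequence. Y111B2A.12 had a pooled signal of 43.7 and ranks of 38 and 46, and pno-1, the homologue of a small-subunit ribosome assembly factor of yeast, had a pooled signal of 41.0 and ranks of 15 and 70. These 3 regions were among the 70 highest regions in both replicates. epg-9, the worm ATG101 homologue in autophagy, had a pooled signal of 31.25 and ranks of 94 and 71. acs-13, an acyl-CoA synthetase gene, had 27.0 with ranks of 87 and 189, and cpl-1, a cathepsin L protease gene, had 20.7 with ranks of 155 and 510. Replicate ranks lay far apart for Y67D8A.2, with a pooled signal of 23.2 and ranks of 63 in replicate 1 and 1169 in replicate 2, and for T23B5.3, with 20.9 and ranks of 1531 and 159. They lay closer for T13B5.9, at 168 and 280, and irx-1, at 91 and 298. Pooled signals of the remaining ones were 22.4 in T13B5.9, 22.0 in clec-221, a C-type lectin gene, 21.1 in pqn-41, which encodes a glutamine-rich protein with a part in linker cell death, and 21.0 in R02F2.1.

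Most intronic regions were weak. Their pooled signal had a median of 9.03, a lowest value of 7.59 and a highest of 80.9, against medians of 9.24 for distal intergenic, 9.30 for promoter and 8.71 for exonic regions. A q-value of 0.05 or less in the pooled list was reached by 42 of 685 intronic regions (6.13%, 95% Wilson interval 4.57 to 8.18), against 6.28% of all autosomal regions. Distal intergenic regions reached it in 7.49% and promoter regions in 7.17% of cases, and Fisher's exact test, two-sided, gave adjusted p-values of 0.495 and 0.563 for intronic regions against each. Of the 685, 28 shared at least 1 bp with a thresholded peak (4.09%; 3.88% of all autosomal regions), and 24 had the same summit as one (3.50%; 3.17% of all). The difference of 4 came from overlapping neighbours in pkg-2, pqn-41, nhr-46 and R02F2.1, whose own summits were not in the thresholded list. For a shared base, the intronic share did not differ beyond its counting interval from 4.71% of distal intergenic regions (odds ratio 0.862, adjusted p = 0.704, Fisher's exact test) or from 4.30% of promoter regions (odds ratio 0.948, adjusted p = 0.911). Regions are not replicates of a condition, and these p-values treat them as independent. Adjustment was by Benjamini-Hochberg over 8 tests.

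Intronic sequence carried fewer regions for its length than promoters did. Eligible intronic sequence, meaning autosomal bases that satisfy the rule, made up 20.1 Mb, or 24.4% of the autosomes, and held 18.1% of autosomal regions, a density of 34.0 regions per Mb. Distal intergenic sequence held 42.9 regions per Mb, promoter windows 63.9 and exons 33.7. At q of 0.05 or less the densities were 2.09 regions per Mb in introns, 3.21 in distal intergenic sequence, 4.58 in promoters and 0.567 in exons. Introns and exons thus had like densities over the whole list and unlike ones among its better supported regions; these densities were not tested. Among chromosomes, the density of intronic regions was lowest on chromosome I, at 26.6 per Mb with 121 regions, and highest on chromosome IV, at 38.1 per Mb with 155.

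The replicates supported intronic regions unequally. In the replicate 1 list 462 of the 685 were found (67.4%), in the replicate 2 list 578 (84.4%), and in neither 11. Both lists held 366 intronic regions (53.4%, interval 49.7 to 57.1), against 56.8% of distal intergenic and 60.6% of promoter regions and 57.2% of all autosomal regions. The intronic share was lower than the promoter share (odds ratio 0.745, adjusted p = 0.0108, Fisher's exact test, two-sided), while against distal intergenic regions the odds ratio was 0.874 and the adjusted p 0.425. When the replicate summits had to lie within 100 bp of the pooled one, intronic regions were in both lists in 30.1% of cases. The share was still below that of promoters, but the difference no longer passed 0.05 (odds ratio 0.769, adjusted p = 0.0542, Fisher's exact test). With q of 0.05 or less in both replicate lists, 34 intronic regions were counted (4.96%), against 7.01% of distal intergenic and 6.88% of promoter regions and 5.86% of all, with an adjusted p of 0.282 for each.

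**Figure D1:**
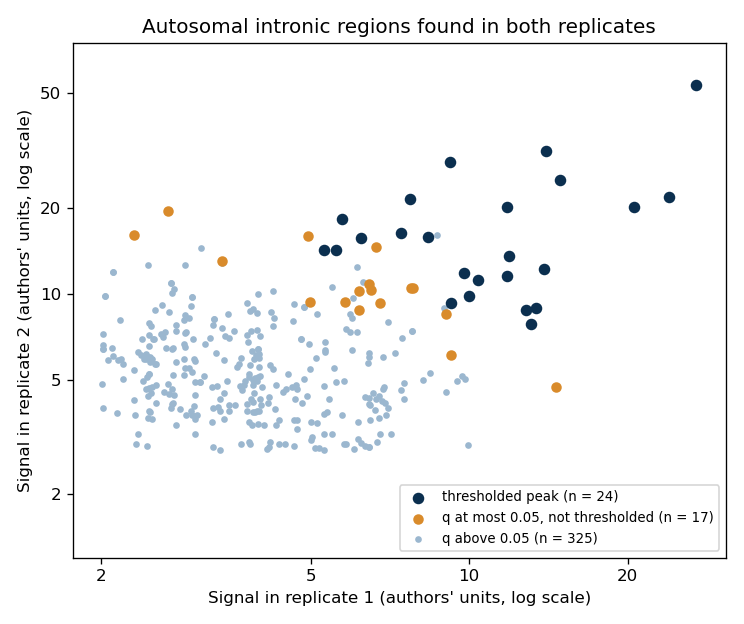
Signal in replicate 1 (x axis) against replicate 2 (y axis) for the 366 intronic regions found in both lists, each on a log scale in the authors' units. Dark points are the 24 regions with the summit of a thresholded peak, orange points the 17 others at q of 0.05 or less in the pool, and pale points the 325 above it; the dark points fill the upper right and the pale cloud shows almost no slope.

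Over the 366 regions in both lists, signal was nearly unordered between replicates. Spearman's rho between the replicates was 0.07 across intronic regions, 0.25 across 470 distal intergenic and 0.16 across 1057 promoter regions, and Pearson's r of log2 signal was 0.27, 0.40 and 0.28. These are descriptions across regions, which share 2 libraries and are not independent samples. The regions were called on the pool of the same 2 replicates, and some shared a replicate value. The rho values therefore do not measure agreement over the whole replicate lists. The 24 regions with a thresholded summit stood apart in the plot of replicate signals, since 20 of them were among the 500 highest regions of replicate 1, 19 among the 500 highest of replicate 2 and 15 in both. That list was made from the replicate and pooled lists, so its ranks there are a description and no independent support. Of all 685 intronic regions 62, 60 and 21 met the same 3 conditions.

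Some regions with good pooled support rested on 1 replicate, and 3 examples were chosen after their values were seen, besides atf-7. trpp-10 had a pooled signal of 18.9 and rank 46 in replicate 1, and no region in replicate 2; all of its window is soft-masked, that is, printed in lower case in the RefSeq genome as repetitive or low-complexity sequence. cdk-5, a cyclin-dependent kinase gene of neurons, had a pooled signal of 20.6, rank 11234 in replicate 1 and rank 75 in replicate 2. atf-7, a bZIP factor of the p38 immune pathway, had 19.15, with ranks of 15318 and 113. F58G1.7 went the other way, with a pooled signal of 17.4 and ranks of 42 and 6720, and its summit lay inside sup-6, an snRNA gene. Overlap also joined replicate values: 58 intronic regions overlapped another pooled region, 38 took their replicate 1 value and 44 their replicate 2 value from a region that another intronic region used too.

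TGACAG was found within 100 bp of the summit on either strand in 70 of 685 intronic regions (10.2%, interval 8.17 to 12.7), against 12.0% of distal intergenic, 8.26% of promoter and 9.34% of all autosomal regions. The intronic share did not pass the test against distal intergenic regions (odds ratio 0.838, adjusted p = 0.996) or promoter regions (odds ratio 1.26, adjusted p = 0.629; Fisher's exact test, two-sided, adjusted over 20 tests of 10 words). Without replicate 2, when the strongest replicate 1 regions replaced the pooled list, 7.66% of 757 intronic regions held the word, and the odds ratio against distal intergenic regions was 0.568 (adjusted p = 0.0262, Fisher's exact test). Windows of the same length laid end to end over eligible intronic sequence held it in 5.16% of 77679 cases. The intronic share was thus above that of intronic sequence at large and within the range of the other kinds of region. The background windows differed in composition, with a median GC content of 32.3%, against 36.3% for intronic regions, and with over 50% of the window soft-masked in 57.6% of cases, against 24.4%. Among windows at most 50% soft-masked the word was in 11.0% of 518 intronic regions and 7.02% of 32938 background windows. The part of composition in this difference was not tested.

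The word followed signal within introns. Of the 50 intronic regions with the highest pooled signal, 15 held it (30.0%, interval 19.1 to 43.8), of the next 50 it was 12.0%, of the next 100 11.0%, of the next 200 7.0%, and of the last 285 8.42% (interval 5.72 to 12.2). The interval of the highest 50 lay wholly above that of the lowest group, and beyond the highest 50 the intervals overlapped one another. Distal intergenic regions gave 32.0% in their highest 50 and 9.11% in their last group, and promoter regions gave 22.0% and 6.92%. At q of 0.05 or less the word was in 13 of 42 intronic regions (31.0%), and above it in 57 of 643 (8.86%). Of the 24 with a thresholded summit, 9 held it. Windows of the 42 also differed in composition. Their median GC content was 39.3%, against 36.3% for all intronic regions, and 11.9% were over 50% soft-masked, against 24.4%. The part of composition in the rise with signal was not tested.

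**Figure D2:**
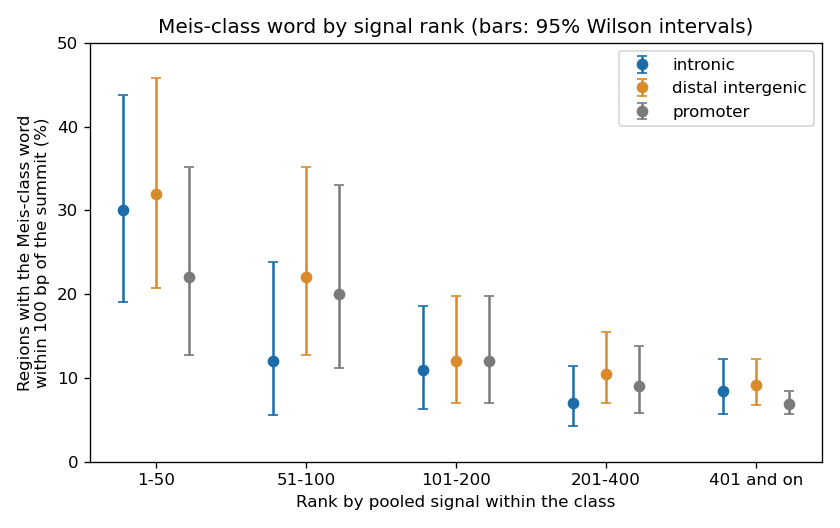
Share of regions with TGACAG, the Meis-class word, within 100 bp of the summit (y axis, percent) by rank of pooled signal within each kind of region (x axis), with 95% Wilson intervals, for intronic (blue), distal intergenic (orange) and promoter regions (grey). The highest 50 intronic regions reach 30.0%, and the following groups lie between 7.0% and 12.0%.

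In the 13 better supported regions that held TGACAG, the word nearest the summit lay a median of 39 bp from it, and in 5 of them within 25 bp. In the other 57 the median was 62 bp, and 8 were within 25 bp. Over all 70, the word pointed along the host gene's strand in 37 and against it in 33, so it showed no leaning with the direction of transcription. The joint word TGATTGACA was rare. It was in 5 intronic regions (0.730%), against 0.604% of distal intergenic and 0.689% of promoter regions and 0.160% of background windows. Its 5 hosts were egl-44, irx-1, dnj-20, a DnaJ-class chaperone gene, egl-19, a voltage-gated calcium channel gene of muscle, and lin-41, a heterochronic gene on chromosome I, with pooled signals of 44.4, 22.5, 12.4, 9.07 and 9.04, so 2 of the 5 were among the 14 highest intronic regions.

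Words of other factors were also common near the better supported summits. TGATAA, the word of GATA factors, which control intestinal and epidermal genes in the worm, was in 21 of the 42 regions at q of 0.05 or less, in 24.1% of all intronic regions, in 27.4% of distal intergenic and 27.9% of promoter regions, and in 15.3% of background windows. CACGTG, the E-box bound by basic helix-loop-helix factors, was in 9 of the 42 (21.4%), in 6.13% of all intronic regions and in 2.65% of background windows. Distal intergenic regions held this word in 5.68% and promoter regions in 6.48% of cases, close to the share of all intronic regions. Only 1 region, in nhr-46, held both CACGTG and TGACAG, while 7 held TGACAG with TGATAA and 10 held none of the 3. GAGAGAG was in 8 of the 42 (19.0%), in 6.86% of all intronic regions and in 10.6% of distal intergenic regions (odds ratio 0.6195, p = 0.0111, adjusted p = 0.111, Fisher's exact test). Promoter regions held GAGAGAG in 8.03% of cases (odds ratio 0.844). TTTCAG, the letters of the worm splice acceptor, ran the other way, with 6 of the 42 (14.3%), 32.1% of all intronic regions and 38.65% of background windows, and 25.85% of distal intergenic regions (adjusted p = 0.111, Fisher's exact test). Promoter regions held TTTCAG in 30.8% of cases (odds ratio 1.06). Because the rule kept summits to introns, the comparison of this word with distal intergenic regions is tied to how the kinds of region were set. GACAGT is TGACAG read from its last letter to its first and can overlap it in TGACAGT. It was in 7.88% of all intronic, 7.73% of distal intergenic and 7.80% of promoter regions, against 4.16% of background windows. Among the 42 it was in 8 (19.0%). Of these 8 regions 6 also held TGACAG, so the word gives little beyond the TGACAG count. TGACA, TGATNNAT and GGGCGG were in 38.4%, 16.2% and 5.26% of intronic regions, and none of the 20 tests of the 10 words passed after adjustment. The E-box and GATA counts among the 42 regions were not tested, and a match of letters says nothing of which factor was bound.

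**Figure D3:**
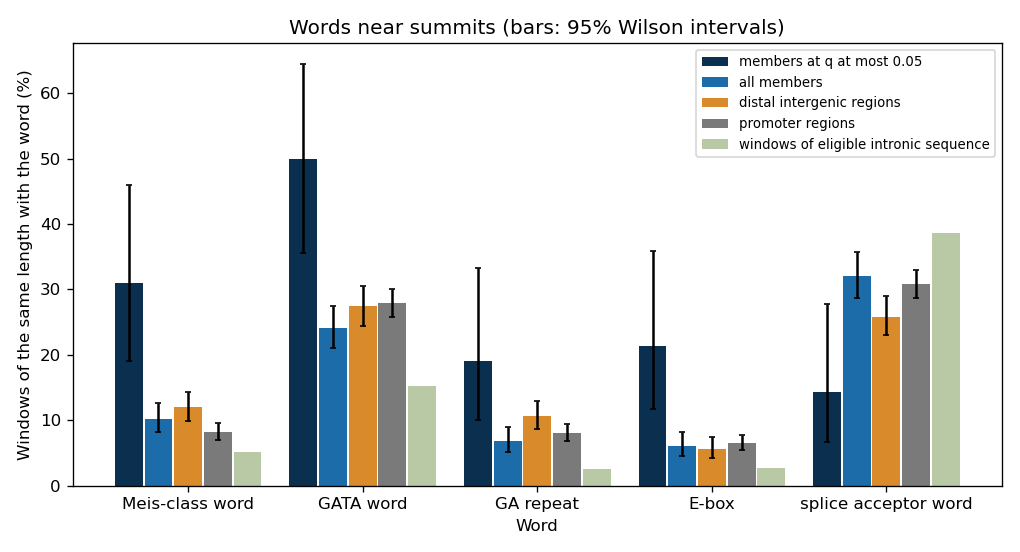
Share of windows of equal length holding each of 5 words (y axis, percent; words on the x axis), from left to right for the 42 intronic regions at q of 0.05 or less, all 685 intronic regions, distal intergenic regions, promoter regions and windows of eligible intronic sequence; bars carry 95% Wilson intervals except the last. The better supported regions are highest for the Meis-class, GATA, GA-repeat and E-box words and lowest for the splice acceptor word.

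Intronic regions lay in long introns and in first introns more than eligible bases did. The first intron of the host transcript held 155 (22.6%, interval 19.7 to 25.9), against 16.4% of eligible bases, and introns 5 and later held 249 (36.4%), against 42.4%. Of the 42 better supported regions 13 (31.0%) were in first introns. Introns over 5000 bp and up to 10000 bp held 15.3% of regions, against 9.03% of eligible bases, and longer ones held 7.01%, against 4.505%. In introns over 1000 bp and up to 2000 bp the order was turned, with 13.6% of regions and 20.95% of bases. The median length of the intron was 1356 bp over all intronic regions and 4217.5 bp over the better supported ones. Position was part of how regions were chosen, so these shares are given without a test.

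**Figure D4:**
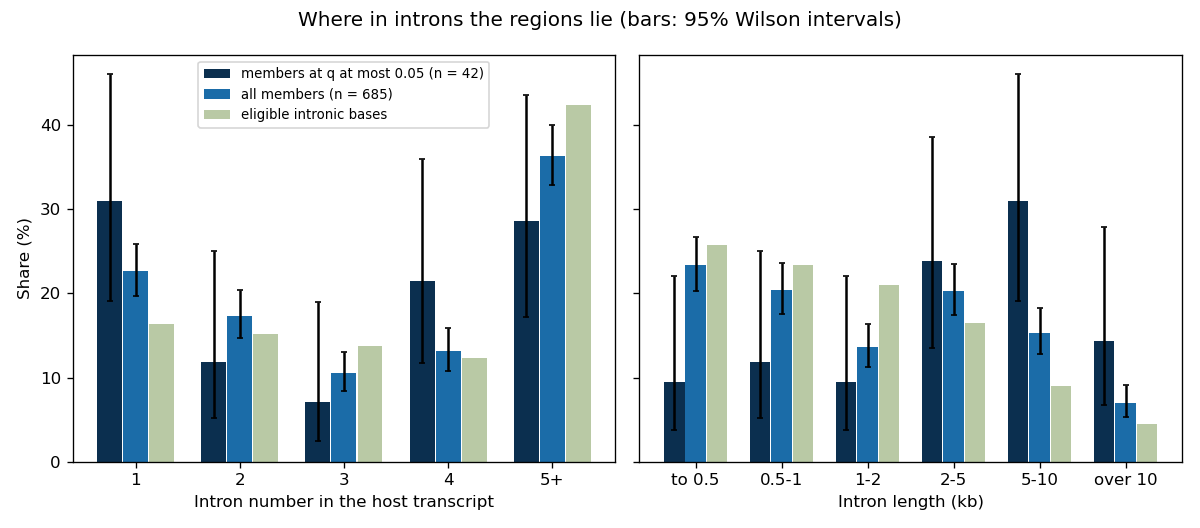
Share (y axis, percent) of the 42 intronic regions at q of 0.05 or less (dark), of all 685 (blue) and of eligible intronic bases (green) by number of the intron in the host transcript (left) and by intron length in kb (right), with 95% Wilson intervals on the regions. Regions exceed bases in first introns and in introns over 2000 bp, and the dark bars are widest in error because they count 42 regions.

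The regions were spread through the introns rather than gathered at splice sites. Summits within 100 bp of a splice site were 195 (28.5%), against 30.1% of eligible bases, and 350 of the 685 (51.1%) lay nearer the donor than the acceptor. A median of 1802 bp separated the summit from the nearest protein-coding start, and for 566 regions (82.6%) that start was of the host gene. The whole region lay within its intron in 403 cases (58.8%), so the other regions also covered exons or flanking sequence. Nearest the edge of the rule, egl-3 and lec-4 had summits 507 and 510 bp downstream of a start and were kept, with pooled signals of 8.22 and 9.39, while rml-5 and K10C3.4, at 499 and 498 bp with 8.93 and 14.9, were not. On the upstream side scpl-1 and F27C1.6 were kept with summits 1001 and 1008 bp from a start and signals of 8.80 and 7.93, and nep-21 and nhr-64, at 999 and 981 bp with 8.32 and 7.92, were not.

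Most classes of annotated non-coding RNA gene lay near few regions, at shares above those of eligible bases, while piRNA genes did not. An annotated non-coding RNA gene other than a piRNA lay within 500 bp of 82 summits (12.0%), against 6.22% of eligible bases, and of 10 of the 42 better supported ones (23.8%). Genes annotated only as ncRNA made up most of these, with 63 regions (9.20%, against 5.30% of bases), of which 8 were among the 42. For snoRNA genes the count was 13 (1.90%, against 0.389% of bases), for tRNA genes 8 (1.17%, against 0.381%) and for miRNA genes 5 (0.730%, against 0.191%). None of the regions near a snoRNA, tRNA or miRNA gene was among the 42. Antisense RNA genes lay near 6 regions (0.876%, against 0.228% of bases), of which 4 were among the 42, in F17C11.22, vhp-1, let-526 and ppfr-1. piRNA genes lay near 30 (4.38%, against 5.14%). These shares were not tested.

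The 685 regions lay in 554 host genes, which is 4.13% of the 13401 autosomal protein-coding genes with eligible intronic sequence. Of the hosts 466 held 1 region, 61 held 2, 18 held 3, and 9 held 4 or more. pkg-2 and vhp-1 held 7 each, at 5.91 and 7.82 regions per 10 kb of eligible sequence. In pkg-2 the pooled signals ran from 8.83 to 31.8 and 6 of the 7 regions were in both replicate lists, although the regions at 31.8 and 14.35 overlapped and shared their replicate values; in vhp-1 they ran from 8.11 to 30.8 and 3 of the 7 were in both. Each of these genes thus paired 2 regions at q of 0.05 or less with weaker ones.

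F53E4.1 held 5 regions, all in a first intron of 9221 bp, with pooled signals from 9.64 to 14.1, none at q of 0.05 or less; the 2 highest overlapped and shared their replicate values. Y111B2A.12 held 4, of which the highest, at 43.7, stood far above the next, at 14.2. pqn-41 held 4 in a single intron of 10372 bp, at 21.1, 17.2, 12.6 and 11.9, and all 4 were in both replicate lists, although the highest and the lowest overlapped and shared their replicate values. daf-16 held 4, at 26.1, 14.9, 8.69 and 7.69, also all in both lists. The 2 weaker ones matched low-ranked replicate regions. Ranks in replicates 1 and 2 were 14345 and 3319 for the region at 8.69, and 11121 and 10441 for that at 7.69. In daf-16 the 2 highest held TGACAG and the other 2 did not. The remaining hosts had weaker regions: hlh-30, the worm TFEB factor of autophagy and lipid use, with a highest signal of 14.3, crh-1, the worm CREB, with 11.7, and tir-1, the SARM-type adaptor upstream of p38 signalling, with 9.92. The window of the crh-1 region at 11.7 was wholly soft-masked, and its nearest protein-coding start was that of Y41C4A.22. That region ranked 691 in replicate 1 and 9690 in replicate 2. Of the tir-1 regions 1 of 4 was in both replicate lists. crh-1 is the longest of these genes in eligible sequence, with 28872 bp, and had the lowest density, 1.39 regions per 10 kb.

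**Figure D5:**
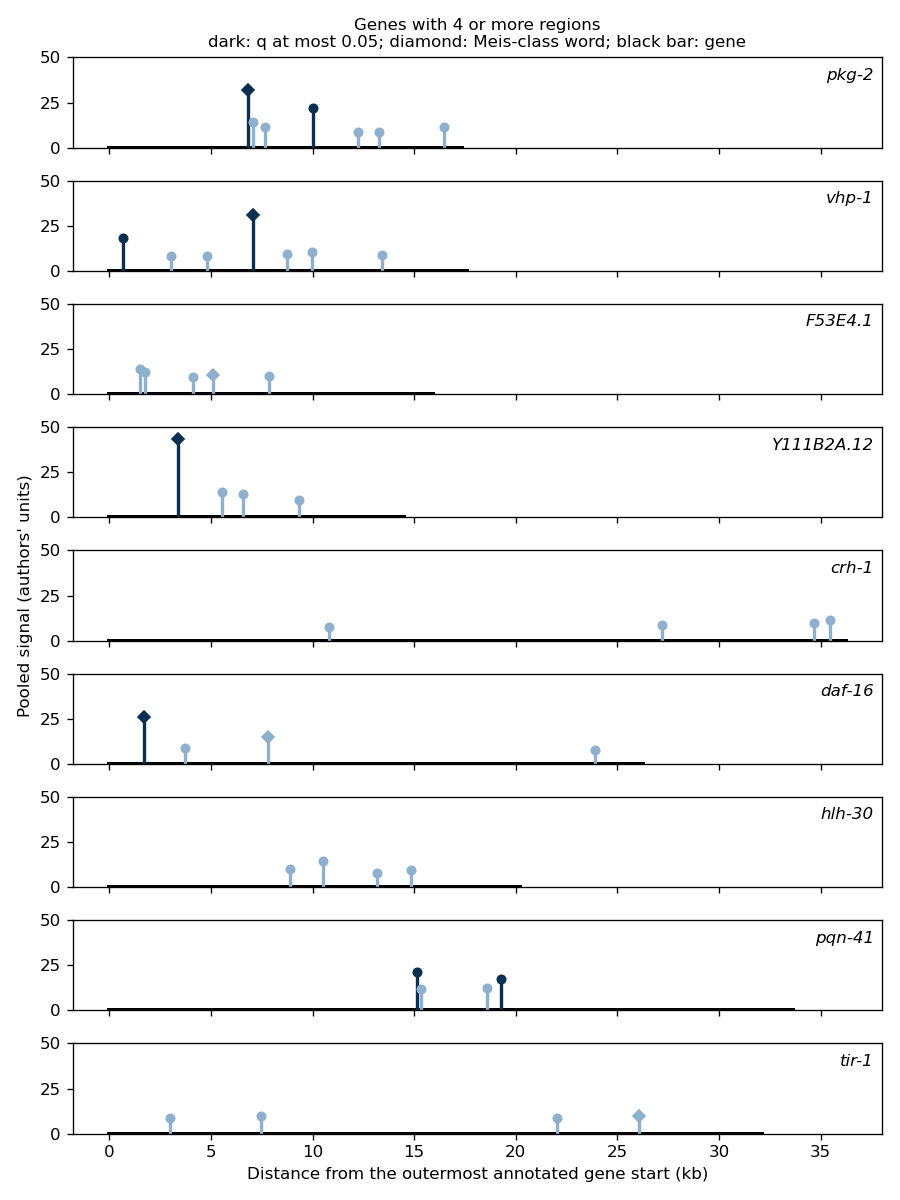
Intronic regions of the 9 genes with 4 or more, drawn by distance of the summit from the outermost annotated gene start (x axis, kb) with pooled signal as height (y axis, authors' units); the black bar is the gene, dark marks are at q of 0.05 or less and diamonds hold the Meis-class word. The tallest mark is that of Y111B2A.12 at 43.7, and crh-1, hlh-30, tir-1 and F53E4.1 have no dark mark.

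Gene lists differed in how often their introns held a region. They were chosen with earlier results of these data known, and are given as counts beside the 4.13% of all eligible genes and the density of 34.0 regions per Mb over all eligible sequence. Each count is out of the listed genes that have eligible intronic sequence, so the lists themselves can be longer. Longevity and stress transcription factors had a region in 7 of 19 genes, 18 regions in all, or 217 per Mb. The 7 were atf-7, crh-1, daf-16, egl-27, hlh-30, pqm-1 and skn-1, and only atf-7 and daf-16 had one at q of 0.05 or less. The skn-1 gene, the worm Nrf factor of oxidative stress, had pooled signals of 9.78 and 7.74 from 2 overlapping regions. pqm-1, a zinc finger factor that acts opposite to daf-16, had 1 region of 8.39, found in replicate 1 only. egl-27, which encodes an MTA-class cofactor, had a pooled signal of 8.15 beside ranks of 242 and 112 in the replicates, whose summits lay 270 and 231 bp from the pooled one. Of the list's 18 regions 2 were at q of 0.05 or less, beside 42 of all 685.

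Nuclear hormone receptors are a family of ligand-binding transcription factors that is much enlarged in the worm. Of 36 listed genes 23 were eligible, and 7 of these had a region, 12 regions in all, or 208 per Mb. That list covers a small share of the family, and a count made after its values were seen, over all 238 autosomal genes named nhr with eligible sequence, gave 14 genes with a region (5.88%) and 20 regions, or 83.9 per Mb. nhr-46 was the one with a region at q of 0.05 or less. nhr-34 and nhr-19 followed with highest pooled signals of 14.35 and 13.9. Their regions ranked only 11138 and 11088 in replicate 1, against 368 and 474 in replicate 2. In nhr-34 and in nhr-46, overlapping regions that shared their replicate values were counted apart. Of 8 eligible genes on a list of 11 TALE and Hox genes 2 held a region: the posterior Hox gene nob-1, with pooled signals of 11.7 and 10.4, and the midbody Hox gene lin-39, with 7.99 and a region in replicate 2 only. None of the Hox regions was at q of 0.05 or less. The list leaves out the Iroquois genes, which are also of the TALE class, and irx-1, described above with a pooled signal of 22.5, is therefore not in its count. F-box genes had 3 of 10, namely fbxl-5, dre-1 and mfb-1, on a list that was drawn up with fbxl-5 known. A list of 44 further homeodomain genes, which does not cover the class, had 27 eligible genes. Of these unc-42, a gene of neuron identity, held a region with a pooled signal of 9.11.

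Neuronal genes had a region in 7 of 29, at 48.0 per Mb, with unc-43, the worm CaMKII, and egl-8, a phospholipase C-beta gene, highest at 10.7 each. Axon guidance and adhesion genes had 5 of 22, at 29.4 regions per Mb over 0.238 Mb of eligible sequence. Body wall muscle genes had 3 of 23 at 24.0 per Mb, in unc-22, egl-19 and unc-52, and epidermal and seam genes 2 of 21, in vab-10 and egl-18. Wnt pathway genes had 2 of 23, the kinase genes gsk-3 and lit-1, at 28.2 per Mb. None of these regions was at q of 0.05 or less. No region was held by the 14 eligible genes of 30 on the intestinal list or the 14 of 20 on the pharyngeal list. These had 0.0125 Mb and 0.0263 Mb of eligible sequence, which is little sequence in which to find any. No tissue is assigned to any region from these counts.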

How the data were processed

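UNC-62 ChIP-seq of 2 replicates of L4 larvae was analysed from the ce11 region lists that the authors deposited for replicate 1, replicate 2, the pool and the thresholded set; lists for ce10 were not used here. Per the file headers of the accompanying texts, each replicate and pooled list was made from alignments and a control and includes background regions, and the thresholded list was made from the other 3. Not given in the sources used here: aligner, peak caller and threshold. The deposited signal value is the authors' own and has no stated scale, and the deposited −log10 of the q-value was turned into a q-value, with 0.05 as the limit. Replicate 1 gave 18114 regions, 1521 at q of 0.05 or less; replicate 2 gave 20477, with 604; the pool gave 4849, with 352; and 197 peaks were thresholded. Read counts are absent from these lists, which leaves depth unknown, and Wilson intervals cover the counting of regions only.

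Summits were placed on Ensembl release 115 genes and RefSeq sequence of WBcel235, and no region passed a chromosome end. The host was the innermost gene, and the intron number came from its transcript with the longest coding sequence that had an intron there. A replicate was taken to hold a pooled region that shared 1 bp with a region of its list, and the one of highest signal was taken. Shares were compared with Fisher's exact test, two-sided, adjusted by Benjamini-Hochberg (Python 3.11.15, scipy 1.17.1, statsmodels 0.14.6), and p-values over regions treat regions as independent. Of 321 gene symbols in 12 lists 316 matched the annotation. The classifier, word search and test were checked on simulated data. The members, lists and tests were chosen with earlier results of these data known. Named genes are hosts of thresholded regions, the highest region on each chromosome, hosts of 4 or more regions, listed genes with a region at q of 0.05 or less and the regions nearest the promoter edges; other listed genes, the replicate-unequal examples and the hosts of a joint word were named besides, after their values were seen.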

Additional observations from a re-analysis of the deposited data

How the results depend on the processing

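Of 38 alternative settings of odds ratios 34 kept the side of the threshold, and 6 lay on the other side of 1 from the reported value. Of 30 settings of counts and shares 15 stayed within 1.5 times the count or within the 95% Wilson interval of the share. The count of intronic regions was 403 where the whole region had to lie in the intron. The TGACAG share was 4.67% within 50 bp of the summit, 16.5% within 200 bp, 31.0% at q of 0.05 or less, 32.1% in regions overlapping thresholded peaks, and 12.8% among regions in both replicate lists (chosen after seeing the data); it was 7.66% to 8.32% when the pooled list was replaced by the highest regions of 1 replicate. The TGACAG odds ratio against distal intergenic regions was 0.568 without replicate 2 (adjusted p = 0.0262, Fisher's exact test) and 0.828 without replicate 1, and reached 1.01 among regions at q of 0.05 or less; the cause was not tested. With q of 0.05 or less in place of the thresholded list the share was 6.13%.

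The share in both replicate lists was 45.8% when 50% of the region had to be shared, 4.96% with replicate q of 0.05 or less, 97.6% of regions with pooled q of 0.05 or less, and 30.1% with summits within 100 bp (chosen after seeing the data). Its odds ratio against promoters was 0.757 with 50% shared, where the call held (adjusted p = 0.0173, Fisher's exact test), 0.706 with replicate q of 0.05 or less (adjusted p = 0.282, Fisher's exact test), 0.769 with summits within 100 bp (adjusted p = 0.0542), and turned to 2.07 among pooled regions at q of 0.05 or less (adjusted p = 0.908), where 42 intronic regions are left. The share in first introns was 31.5% when a first intron of any transcript counted, against 22.4% of eligible bases counted the same way. The share was 31.0% at q of 0.05 or less, and 19.0% to 21.9% from single replicates. No paired analysis was possible because both replicates belong to a single group.

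Depth and the scale of signal are unknown, the control that entered the authors' lists was not analysed here, and 2 replicates of 1 strain give no spread beyond those samples.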
